A study of Homo sapiens with 6 samples.

Results

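The genes described here build the sugar tree of N-linked glycoproteins, attach it to nascent chains in the endoplasmic reticulum (ER) and read it during folding. They were chosen by name from what is known of the pathway, with earlier results of these data known, and number 43 of 58735 genes in the deposited table. The 43 genes were sorted by role into 5 for dolichol supply, 5 for lipid-linked sugar donors, 6 for assembly on the cytosolic face of the ER, 7 for assembly in its lumen, 12 for oligosaccharyltransferase and 8 for glucose trimming and the lectin cycle. RNA sequencing was done on 3 libraries of cells with a short hairpin RNA (shRNA) against HYOU1, called shHYOU1, and 3 libraries of cells with a control shRNA, called shControl. All 6 are labelled as Hep3B, a line from a human hepatocellular carcinoma, with no other agent or time named. HYOU1 encodes a large chaperone of the ER lumen that acts with the chaperone BiP. The labels name no hairpin sequence, vector or clone. The labels do not say that replicates came from separate cultures, so the spread behind each p-value may be partly or wholly technical.

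N-glycosylation begins on dolichol, a long lipid carrier in the ER membrane. A branched oligosaccharide is built on dolichol pyrophosphate, first on the cytosolic side and, after the lipid is flipped, on the lumenal side, where mannose and glucose come from dolichol phosphate donors. Oligosaccharyltransferase moves the finished sugar onto asparagine residues, glucosidases trim its glucoses, and the lectins calnexin and calreticulin hold the glycoprotein while it folds. Liver cells secrete many N-glycosylated plasma proteins, and several genes of ER folding carry promoter elements of the unfolded protein response.

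Promoter sequences are shown because HYOU1 encodes an ER chaperone and the ER stress response element (ERSE), which is bound by ATF6 together with NF-Y, has a fixed form that can be searched for. The ERSE was searched as CCAAT and CCACG separated by 9 bases, on both strands, in windows of 250 bases before to 50 bases after each RefSeq start on GRCh38.p14. There were 35116 such windows over 27305 genes, and 25 genes had an ERSE in at least 1 window, which is 0.0916% of genes. Windows were found for 38 of the 43 genes, 54 windows in all, and 3 of these genes had one. They are shown with the ERSE in capitals, each 5′ to 3′ on the strand of its gene. The genes are CALR, which encodes calreticulin (chr19:12938359-12938658, + strand), CANX, which encodes calnexin (chr5:179698679-179698978, + strand), and ALG12, a mannosyltransferase of the lumenal steps (chr22:49918389-49918688, - strand). In CALR the element lies on the opposite strand and so reads in reverse complement.
CALR: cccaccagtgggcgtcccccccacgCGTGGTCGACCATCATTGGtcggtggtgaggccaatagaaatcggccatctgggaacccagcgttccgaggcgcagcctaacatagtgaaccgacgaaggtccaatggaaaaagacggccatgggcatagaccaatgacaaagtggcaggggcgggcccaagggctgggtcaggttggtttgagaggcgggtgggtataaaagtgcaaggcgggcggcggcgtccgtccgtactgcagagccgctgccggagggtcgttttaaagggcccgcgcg
CANX: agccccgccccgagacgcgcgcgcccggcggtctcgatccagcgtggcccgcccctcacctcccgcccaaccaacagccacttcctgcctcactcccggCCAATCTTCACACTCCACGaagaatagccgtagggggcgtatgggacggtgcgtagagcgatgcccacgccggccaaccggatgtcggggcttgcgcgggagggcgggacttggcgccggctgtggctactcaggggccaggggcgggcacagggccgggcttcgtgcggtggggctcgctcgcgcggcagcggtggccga
ALG12: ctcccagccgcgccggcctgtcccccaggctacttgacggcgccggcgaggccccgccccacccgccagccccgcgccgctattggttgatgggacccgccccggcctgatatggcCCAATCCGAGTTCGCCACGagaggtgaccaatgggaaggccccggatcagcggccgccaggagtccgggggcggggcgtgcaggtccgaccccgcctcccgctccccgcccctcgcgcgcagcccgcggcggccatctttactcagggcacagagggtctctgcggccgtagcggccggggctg
The element spanned positions -225 to -207 from the start in CALR, -151 to -133 in CANX and -134 to -116 in ALG12. CANX had 4 RefSeq starts in all, and the window shown is the one with the element.

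None of the 7 genes that fell in shHYOU1, described next, held an ERSE in any of its windows. Since 0.0916% of all genes had an ERSE, its absence does not set these 7 apart. The window of RPN2, 1 of the 7, is at chr20:37179080-37179379, downstream of the gene start at 37178410. The windows of DOLK (chr9:128947554-128947853, - strand) and UGGT1 (chr2:128090950-128091249, + strand) are given for comparison. Of the 7 they had the largest falls among those with a single RefSeq start.
DOLK: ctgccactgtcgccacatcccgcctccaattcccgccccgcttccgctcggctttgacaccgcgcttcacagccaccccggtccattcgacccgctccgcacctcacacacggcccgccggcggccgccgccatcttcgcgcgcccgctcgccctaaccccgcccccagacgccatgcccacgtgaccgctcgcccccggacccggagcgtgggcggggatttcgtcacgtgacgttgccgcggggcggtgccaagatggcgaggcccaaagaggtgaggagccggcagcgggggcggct
UGGT1: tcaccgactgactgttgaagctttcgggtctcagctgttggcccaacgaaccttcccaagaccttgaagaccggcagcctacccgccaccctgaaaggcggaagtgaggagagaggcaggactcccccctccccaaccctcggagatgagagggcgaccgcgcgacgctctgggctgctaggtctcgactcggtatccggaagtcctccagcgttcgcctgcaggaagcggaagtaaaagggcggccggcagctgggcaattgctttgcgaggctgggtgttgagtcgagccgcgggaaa
A related element was searched as ATTGG and CCACG separated by 1 base, and it stood in 0.0696% of all genes and in none of the 38 genes. The core TGACGTG stood in 2.4% of genes and, among the 38, in DHDDS alone. The letters TGATG and AA separated by 1 base, the form of a composite element bound by ATF4, stood in 4.46% of genes and in none of the 38. A match describes letters and shows no binding, and a window without one may be served by other sequence.

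Depth was 16893091 to 18233240 fragments per library, recovered from the deposited FPKM (fragments scaled by gene length and library size), and the test covered 12448 genes whose 6-library mean reached 1 FPKM. The targeted gene followed the labels, with 2.35, 2.32 and 2.37 FPKM of HYOU1 in shHYOU1 libraries, against 37.6, 58.2 and 59.5 FPKM in shControl libraries. HYOU1 had a log2 fold change of -4.38 (standard error, SE, 0.20; limma, adjusted p = 0.00119), and it was past the threshold whichever library was left out. Hepatocyte markers did not bear out the tissue label, since 0 of 12 averaged 1 FPKM or more and ALB, APOA2, APOB, APOH and TTR were listed at 0 in every library. Summed over the 12, they reached 0.846 to 1.05 FPKM in shHYOU1 and 2.42 to 2.61 FPKM in shControl libraries. The sum held differences in opposite directions. FGB and FGA averaged 0.15 and 0.16 FPKM in shHYOU1, against 1.34 and 0.915 FPKM in shControl libraries. SERPINA1 was higher, at an average of 0.48 FPKM in shHYOU1, against 0.088 FPKM in shControl libraries. The groups did not overlap in these genes, and none of them was tested. Of 5 biliary markers 4 reached 1 FPKM, with sums of 63.6 to 68.0 FPKM in shHYOU1 and 52.3 to 58.6 FPKM in shControl libraries, most of it KRT7, and none of the 4 passed the test described next. Without shControl replicate 1, described below, EPCAM and KRT7 rose (log2 fold change 0.96 and 0.22, limma, adjusted p = 0.000606 and 0.0374). After a correction for GC content EPCAM rose and KRT7 did not pass (0.77 and 0.01, limma, adjusted p = 0.0167 and 0.918). KRT19 and SOX9 passed in none of these fits. KRT19 was at -0.99 with all libraries, -0.29 without shControl replicate 1 and -1.35 after the GC correction. SOX9 lay between -0.07 and 0.0014. CFTR, which was not tested, averaged 0.030 FPKM in shHYOU1 and 0.19 FPKM in shControl libraries, with overlap. Of 6 fibroblast markers 3 reached 1 FPKM, with sums of 9.17 to 9.54 FPKM in shHYOU1 and 9.19 to 10.6 FPKM in shControl libraries and COL1A2 at 0. These sums hold changes in opposite directions, since COL1A1 rose to 5.61 to 6.83 FPKM in shHYOU1, against 2.33 to 3.27 FPKM in shControl libraries (log2 fold change 1.09, limma, adjusted p = 0.0159). DCN fell to 1.45 to 1.81 FPKM in shHYOU1, against 3.82 to 4.49 FPKM in shControl libraries (-1.35, limma, adjusted p = 0.00708), and PDGFRB did not pass. PDGFRB fell without shControl replicate 1 (-0.75, limma, adjusted p = 0.00984) and after the GC correction (-0.83, limma, adjusted p = 0.00634). Of 5 immune and 4 endothelial markers 0 reached 1 FPKM, with PTPRC, CD3E and KDR at 0. Mitochondrial genes took 3.39% to 3.84% of fragments in shHYOU1 and 4.96% to 7.59% in shControl libraries. The part of these differences in the results below was not tested, and in bulk RNA fewer cells of a type and less RNA per cell cannot be told apart. The library shControl replicate 1 stood apart, with a correlation across genes of 0.906 and 0.892 with shControl replicates 2 and 3, against 0.971 between those replicates. Its median log2 difference from their mean was 0.76 in the tenth of genes poorest in GC and -1.0 in the tenth richest in GC. KRT19, at 61.8% GC, went against this trend, with 11.6 FPKM there against 2.86 and 2.39 FPKM in shControl replicates 2 and 3. Mitochondrial genes took 7.59% of its fragments, against 5.17% and 4.96% in those replicates. Most results below are therefore given with and without this library.

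With HYOU1 shRNA, 7 of the glycosylation genes fell and none rose. DOLK, ALG9, ALG8, ALG6, RPN2, MAGT1 and UGGT1 dropped to between 34.1% and 56.2% of their shControl means. They cover lipid phosphorylation, the lumenal mannose and glucose steps, subunits of oligosaccharyltransferase and the folding sensor of the lectin cycle. No gene for sugar donors or cytosolic assembly passed the test, but only 5 and 4 of these genes were tested, where 5.66% of all genes fell. Without shControl replicate 1, MPDU1 and DPAGT1 of these roles fell and DPM1 and ALG2 rose. A difference between steps was not tested. Of the 43 genes, 41 passed the filter on low values and 34 of these did not pass the test, while ALG14 and ALG11 were below the filter. ALG10 passed the filter only because of its level in shControl, since its mean in shHYOU1 was 0.961 FPKM.

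The share that fell was 17.1% of the 41, against 5.66% of all genes tested, and the share that rose was 0 against 6.6% of all genes tested (limma on log2(FPKM + 0.1), Benjamini-Hochberg adjusted p under 0.05, 12.3% of all genes called in either direction). At an unadjusted p under 0.05, 31.5% of all genes passed, counted in both directions. Of the 41 genes GANAB alone had such a p with a positive fold change (limma, unadjusted p = 0.0109), and GANAB was also the 1 gene that rose in voom. Such a p with a negative fold change was found for the genes that fell and for DHDDS, SRD5A3, ALG13, ALG10, ALG10B, CANX and CALR. The median log2 fold change of the 41 was -0.21, beside 0.0351 over all genes tested, and 27 of the 41 had a negative fold change, beside 47.3% of all genes. The groups did not overlap in 44.4% of all genes tested. In 20 of the 41 every shHYOU1 value lay below every shControl value, which is 48.8% against 20.6% of all genes tested. The reverse held in 5 of the 41, which is 12.2% against 23.8% of all genes tested. Of the genes under the filter, ALG14 had 0.516, 0.723 and 0.445 FPKM in shHYOU1 and 0.912, 0.920 and 0.862 FPKM in shControl, without overlap. ALG11 had 0.638, 0.722 and 0.719 FPKM in shHYOU1 and 0.442, 0.573 and 0.421 FPKM in shControl. ALG11 shares 39.7% of its exon bases with UTP14C, and its level is uncertain for that reason.

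These counts moved with the libraries used. Without shControl replicate 1, 15 of the 41 fell and 6 rose, where 19.7% and 24.6% of all genes did. After a correction for GC content 16 fell and 4 rose, where 20.2% and 20.4% of all genes did. All 7 genes fell in both, with log2 fold changes of -1.36 to -0.64 without that library. The counts that fell were 2 without shControl replicate 2 (RPN2 and UGGT1) and 7 without shControl replicate 3, where ALG6 was lost and ALG10 gained, and where 1.21% and 3.44% of all genes fell. They were 1 without shHYOU1 replicate 1 (ALG9) and 0 without shHYOU1 replicate 2 or 3, settings in which 0.578%, 0.378% and 0.217% of all genes fell. The 7 fold changes kept their sign in every setting tried.

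**Figure D1:**
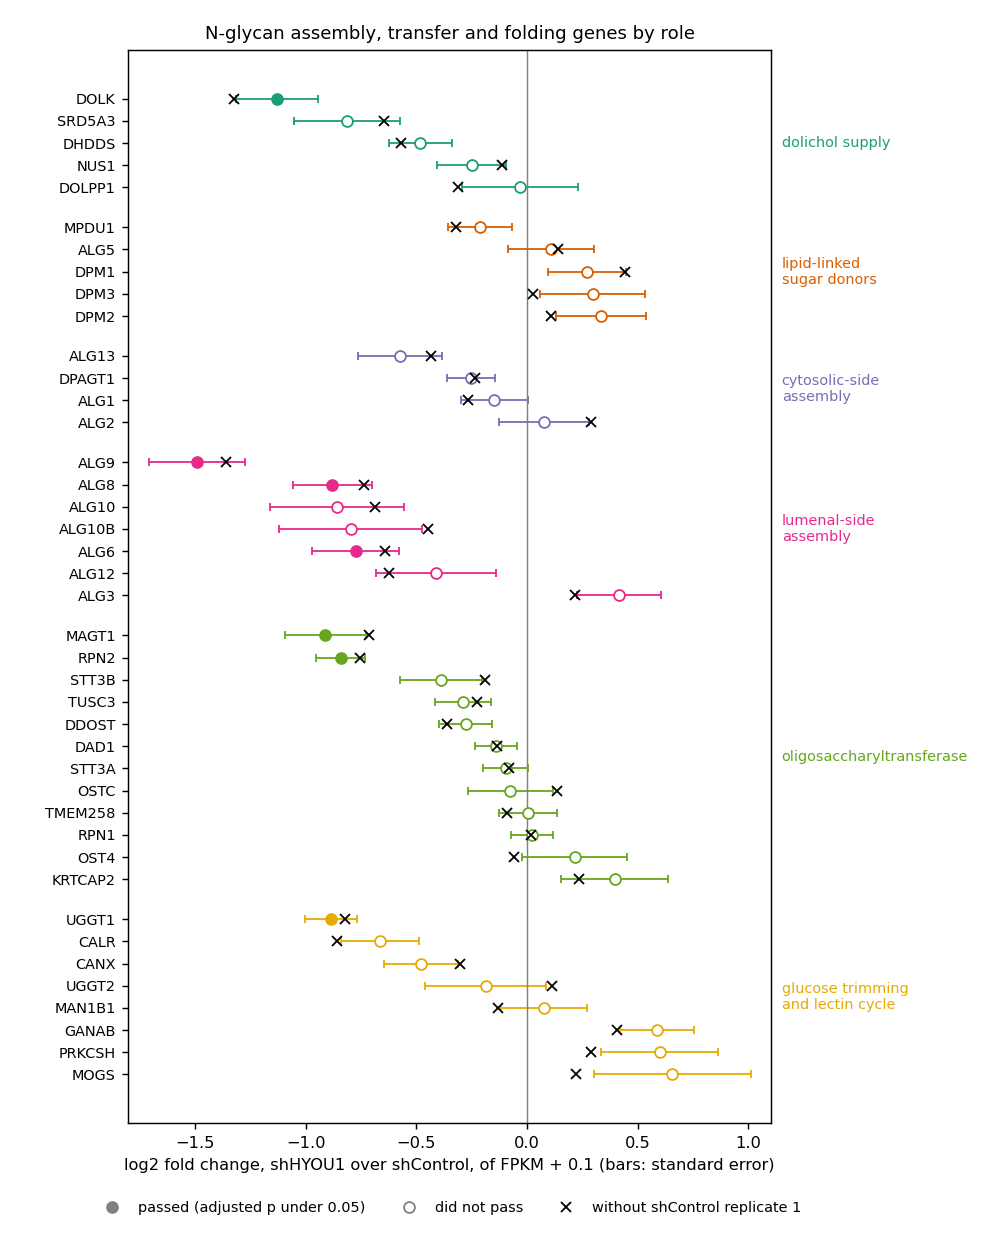
Log2 fold change of shHYOU1 over shControl (x axis, FPKM + 0.1) for the 41 genes tested, by role from top to bottom; bars are standard errors from limma with 3 libraries a group, filled points passed the test, and crosses give the value without shControl replicate 1. The 7 filled points lie between -1.49 and -0.77, and all of them are left of 0.

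Among the genes of dolichol supply DOLK, the kinase that makes dolichol phosphate, fell. It had 6.47, 6.22 and 6.29 FPKM in shHYOU1 libraries, against 10.7, 15.2 and 16.8 FPKM in shControl libraries. The shHYOU1 values lie close together and under every control value, and the lowest control is replicate 1. The mean ± SD was 6.33 ± 0.126 FPKM in shHYOU1 and 14.2 ± 3.19 FPKM in shControl (n = 3 each), which puts shHYOU1 at 44.5% of shControl. On the log2 scale DOLK fell by 1.13 (SE 0.19, limma, adjusted p = 0.0168). It fell by 1.32 without shControl replicate 1, and the call was lost without shControl replicate 2 or any shHYOU1 library (limma, adjusted p = 0.0669 to 0.0954). DOLK is encoded at chr9:128945530-128947619 on the - strand of GRCh38.

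The other genes of dolichol supply did not pass the test. DHDDS, the catalytic subunit of the cis-prenyltransferase that makes the polyprenol chain, had 4.45, 3.88 and 4.55 FPKM in shHYOU1 and 5.33, 6.29 and 6.50 FPKM in shControl libraries, without overlap. For DHDDS the log2 fold change was -0.48 (SE 0.14, limma, adjusted p = 0.0721). NUS1, its partner subunit, had 10.5, 9.81 and 9.29 FPKM in shHYOU1 and 14.3, 11.1 and 10.2 FPKM in shControl libraries, where the groups overlap (log2 fold change -0.25, limma, adjusted p = 0.314). It was -0.11 without shControl replicate 1 and -0.06 after the GC correction. SRD5A3, a reductase on the route from polyprenol to dolichol, had 1.66, 1.11 and 1.11 FPKM in shHYOU1 and 2.94, 2.04 and 2.04 FPKM in shControl libraries. Its groups do not overlap, and its log2 fold change was -0.81 (limma, adjusted p = 0.0746). DOLPP1, a phosphatase that returns the used carrier to the pool, had 11.7, 15.0 and 12.4 FPKM in shHYOU1 and 8.94, 14.9 and 17.4 FPKM in shControl libraries. Its control values run on either side of the shHYOU1 values, and the difference of -0.03 on the log2 scale (limma, adjusted p = 0.943) turned positive under 4 alternatives, TPM scaling among them. With shControl replicate 1 left out, DHDDS and SRD5A3 joined DOLK among the genes that fell (limma, adjusted p = 0.00249 and 0.0352). DHDDS and SRD5A3 were named after their values were seen.

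None of the 5 genes for lipid-linked sugar donors passed the test in limma, where 0 had an unadjusted p under 0.05, or in voom, and every one had overlapping groups. DPM1, the catalytic subunit of dolichol phosphate mannose synthase, had 45.4, 38.7 and 40.4 FPKM in shHYOU1 and 43.6, 29.1 and 31.9 FPKM in shControl libraries. The overlap comes from shControl replicate 1, which lies with the shHYOU1 values. The DPM1 log2 fold change was 0.27 (SE 0.18, limma, adjusted p = 0.332), and without shControl replicate 1 it rose by 0.44 (limma, adjusted p = 0.00323). DPM2, a small subunit of the synthase, had 38.5, 40.6 and 42.1 FPKM in shHYOU1 and 23.4, 36.1 and 38.7 FPKM in shControl libraries. The DPM2 log2 fold change was 0.33 (SE 0.20, limma, adjusted p = 0.30), and 0.11 without shControl replicate 1. DPM3, the remaining subunit, and ALG5, which makes dolichol phosphate glucose, had log2 fold changes of 0.30 and 0.11. DPM3 stood at 0.03 without shControl replicate 1 and at -0.02 after the GC correction, and ALG5 stood at -0.07 without shHYOU1 replicate 2. MPDU1, which is needed for the use of both donors, differed by -0.21 on the log2 scale (limma, adjusted p = 0.349) and passed the test only without shControl replicate 1 (-0.32) or after the GC correction.

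Of 6 genes for assembly on the cytosolic face 4 were tested, and none passed in limma, where ALG13 alone had an unadjusted p under 0.05, or in voom. DPAGT1, which starts the tree with an N-acetylglucosamine phosphate and is the target of tunicamycin, had 17.8, 19.2 and 20.1 FPKM in shHYOU1 libraries, against 23.3, 22.3 and 22.6 FPKM in shControl libraries. The groups do not overlap, and shControl replicate 1 lies with its 2 replicates. The mean ± SD was 19.0 ± 1.18 FPKM in shHYOU1 and 22.7 ± 0.531 FPKM in shControl (n = 3 each), with a log2 fold change of -0.25 and an SE of 0.11 (limma, adjusted p = 0.164). With shControl replicate 1 left out it fell by 0.24 on the log2 scale (limma, adjusted p = 0.0273). DPAGT1 shares 21.3% of its exon bases with C2CD2L on the opposite strand, which was at 2.00 to 3.24 FPKM, and strand use in counting is not given. ALG2, which adds mannoses after ALG1, had 12.9, 11.1 and 12.1 FPKM in shHYOU1 and 15.3, 9.20 and 10.4 FPKM in shControl libraries. Its shHYOU1 values fall inside the range of the controls (log2 fold change 0.08, limma, adjusted p = 0.817), and its sign turned to -0.07 without shControl replicate 2. Without shControl replicate 1 ALG2 rose by 0.29 (limma, adjusted p = 0.0333). ALG13, the catalytic partner of ALG14 in adding the next N-acetylglucosamine, had a log2 fold change of -0.57 without overlap (limma, adjusted p = 0.0946). It was -0.43 without shControl replicate 1 (limma, adjusted p = 0.0511), and ALG13 fell after the GC correction (-0.47, limma, adjusted p = 0.0289). ALG1, which adds the first mannose, had a log2 fold change of -0.15 with overlap, or -0.26 without shControl replicate 1. ALG1 shares 20.1% of its exon bases with EEF2KMT on the opposite strand, which was at 4.57 to 6.68 FPKM, so its level is uncertain too.

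ALG9, ALG8 and ALG6 fell, and these were 3 of the 7 genes for assembly in the lumen, where 5.66% of all genes tested fell. The genes of this role had a median transcript GC content of 41.65%. In shControl replicate 1 they lay a median of 0.41 log2 units above the mean of shControl replicates 2 and 3. ALG9 adds mannose from dolichol phosphate mannose, and ALG6 and ALG8 add the first glucoses of the cap. ALG3, the mannosyltransferase that acts first in the lumen and had the highest mean of the group, was higher in all 3 shHYOU1 libraries than in any control without passing the test.

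ALG9 (chr11:111782195-111871581, - strand) had the most negative fold change of the 41 genes. Its level was 1.65, 1.05 and 1.31 FPKM in shHYOU1 libraries, against 4.67, 3.66 and 3.39 FPKM in shControl libraries. The highest shHYOU1 library is still under the lowest control. The mean ± SD was 1.33 ± 0.304 FPKM in shHYOU1 and 3.91 ± 0.674 FPKM in shControl (n = 3 each), 34.1% of the control level. ALG9 had a log2 fold change of -1.49 (SE 0.22, limma, adjusted p = 0.0125), or -1.36 without shControl replicate 1. The call was lost without shControl replicate 2 (limma, adjusted p = 0.0506) and without shHYOU1 replicate 2 or 3 (limma, adjusted p = 0.0754 and 0.0790). Of its exon bases 24.4% are shared with AP001781.2 on the same strand, which is listed at 0 in every library.

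ALG8 (chr11:78100936-78139660, - strand) was at 11.4, 12.4 and 9.37 FPKM in shHYOU1 libraries and at 24.8, 18.6 and 18.1 FPKM in shControl libraries. Replicate 1 is the highest control, and the groups stay apart without it. The log2 fold change was -0.88 (SE 0.18, limma, adjusted p = 0.0285), and the level 54.0% of the control mean. It was -0.74 without shControl replicate 1, and the call was lost without shControl replicate 2 or any shHYOU1 library (limma, adjusted p up to 0.129). ALG6 (chr1:63367575-63438562, + strand) was at 1.41, 1.17 and 1.29 FPKM in shHYOU1 libraries and at 2.76, 2.21 and 1.92 FPKM in shControl libraries. Its groups do not overlap, but its adjusted p was just under the threshold. Its limma estimate was a log2 fold change of -0.77 (SE 0.19, limma, adjusted p = 0.0484), at 56.2% of the control mean. ALG6 kept its call without shControl replicate 1 (-0.64, limma, adjusted p = 0.0155) and lost it with any other library left out (limma, adjusted p up to 0.180).

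ALG3 had 28.8, 29.7 and 31.0 FPKM in shHYOU1 libraries, against 16.9, 24.4 and 27.0 FPKM in shControl libraries. ALG3 had a log2 fold change of 0.42 (SE 0.19, limma, adjusted p = 0.188), and without shControl replicate 1 it rose by 0.21 (limma, adjusted p = 0.0373). ALG12, the mannosyltransferase whose promoter window holds an ERSE, had 1.09, 1.72 and 1.36 FPKM in shHYOU1 and 1.35, 1.97 and 2.36 FPKM in shControl libraries, with overlap. Its log2 fold change was -0.41 (limma, adjusted p = 0.341), or -0.62 without shControl replicate 1 (limma, adjusted p = 0.0417), where it fell. The neighbour CRELD2 on the opposite strand, whose start region ALG12 shares, had 3.24, 3.02 and 3.46 FPKM in shHYOU1 and 4.22, 7.32 and 8.76 FPKM in shControl libraries. ALG10 and ALG10B, near-identical copies that add the last glucose, were both lower in every shHYOU1 library than in any control, with log2 fold changes of -0.86 and -0.80 that did not pass (limma, adjusted p = 0.110 and 0.149). Without shControl replicate 1 ALG10 was at -0.68 and ALG10B at -0.45 (limma, adjusted p = 0.0819 and 0.0948). After the GC correction ALG10B fell (-0.60, limma, adjusted p = 0.0277) and ALG10 did not pass (-0.67, limma, adjusted p = 0.0563). Their reads may be split between the copies, so each value is uncertain. ALG12, CRELD2, ALG10 and ALG10B were named after their values were seen.

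**Figure D2:**
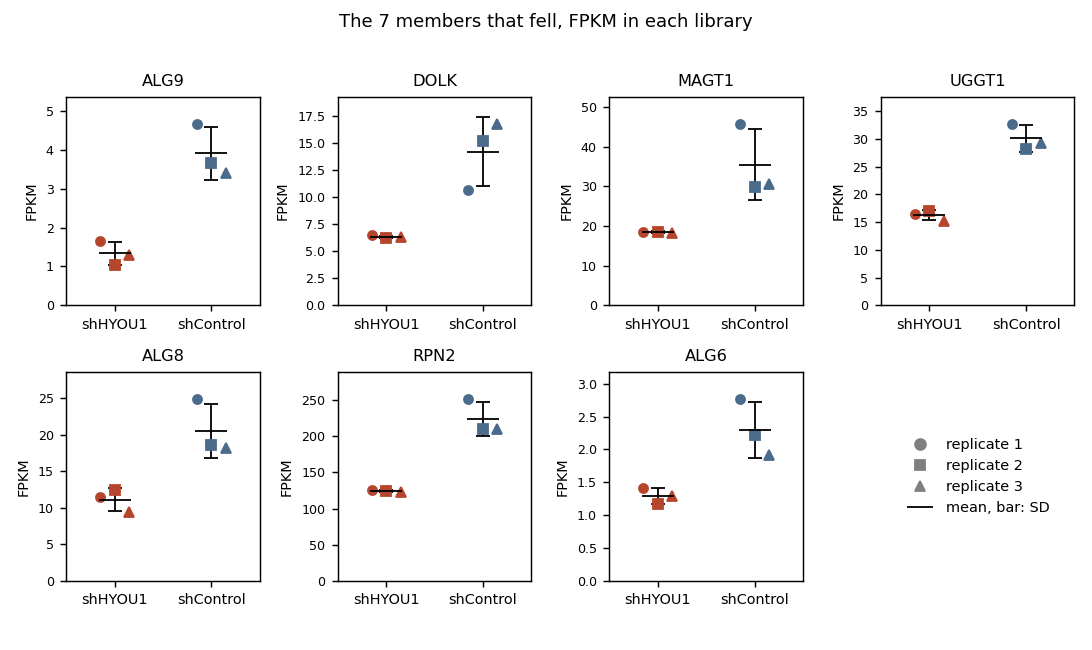
FPKM (y axis from 0) of the 7 genes that fell, with shHYOU1 libraries left and shControl libraries right in each panel; symbols mark replicate numbers, and the bar is the mean with its SD (n = 3 each). In every panel the 3 shHYOU1 values lie below the 3 shControl values, and shControl replicate 1 is the highest control in all but DOLK.

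Of the 12 subunits of oligosaccharyltransferase, RPN2 and MAGT1 fell and the other 10 did not pass. RPN2 (ribophorin II) is a structural subunit of every form of the enzyme, and MAGT1 is an oxidoreductase subunit of the forms built on STT3B. The catalytic subunits STT3A, which acts as chains enter the ER, and STT3B, which also acts afterwards, did not pass the test. RPN1 (ribophorin I), the structural partner of RPN2, differed by less than its standard error.

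RPN2 (chr20:37178410-37241623, + strand) was at 126, 125 and 123 FPKM in shHYOU1 libraries and at 251.1, 211 and 209.6 FPKM in shControl libraries. The shHYOU1 libraries lie close together, and the controls spread more widely with replicate 1 the highest. The mean ± SD was 124.5 ± 1.63 FPKM in shHYOU1 and 224 ± 23.6 FPKM in shControl (n = 3 each), which is 55.6% of the control level. On the log2 scale the change was -0.84 (SE 0.11, limma, adjusted p = 0.00995), or -0.76 without shControl replicate 1. Leaving out any shControl library kept the call, and leaving out any shHYOU1 library lost it (limma, adjusted p = 0.0739 to 0.0767). RPN1 was at 103, 109 and 107 FPKM in shHYOU1 libraries and at 104, 101 and 108 FPKM in shControl libraries. Its groups overlap fully, with a log2 fold change of 0.02 and an SE of 0.10 (limma, adjusted p = 0.895). The sign of RPN1 turned under quantile normalization, to -0.08, and after the GC correction.

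MAGT1 (chrX:77826364-77895593, - strand) had 18.5, 18.6 and 18.2 FPKM in shHYOU1 libraries, against 45.7, 29.9 and 30.5 FPKM in shControl libraries. Replicate 1 is far above the other controls, and those are still above every shHYOU1 library. MAGT1 changed by -0.91 on the log2 scale (SE 0.18, limma, adjusted p = 0.0284), at 52.0% of the control mean. It was -0.71 without shControl replicate 1 (limma, adjusted p = 7.21e-05), and the call was lost without shControl replicate 2 or any shHYOU1 library (limma, adjusted p up to 0.128). TUSC3, the alternative to MAGT1 in the same position of the enzyme, had 10.4, 10.7 and 9.38 FPKM in shHYOU1 and 13.5, 11.2 and 12.6 FPKM in shControl libraries. Its difference was -0.29 on the log2 scale with no overlap (limma, adjusted p = 0.176). For TUSC3 it was -0.23 without shControl replicate 1 and -0.10 after the GC correction (limma, adjusted p = 0.0662 and 0.632). The log2 ratio of TUSC3 to MAGT1 averaged -0.85 ± 0.08 in shHYOU1 and -1.48 ± 0.25 in shControl libraries (SD, n = 3 each), a difference of 0.62 with no overlap (exact permutation test, two-sided, p = 0.1, 0.2 adjusted over 4 ratios). That p is the smallest that 3 libraries against 3 can give. Without shControl replicate 1 the difference in this ratio was 0.49.

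STT3A (chr11:125591712-125625215, + strand) had 33.1, 33.8 and 34.8 FPKM in shHYOU1 libraries, against 37.0, 35.2 and 36.5 FPKM in shControl libraries. The groups do not overlap but lie close, at a log2 fold change of -0.10 (SE 0.10, limma, adjusted p = 0.541) that turned to 0.01 after the GC correction. STT3B (chr3:31532638-31637622, + strand) had 50.2, 52.4 and 46.5 FPKM in shHYOU1 and 85.7, 57.8 and 55.4 FPKM in shControl libraries. Its groups do not overlap, and shControl replicate 1 is the highest control. The log2 fold change was -0.39 with that library (limma, adjusted p = 0.207) and -0.19 without it (limma, adjusted p = 0.0528). After the GC correction STT3B fell by 0.25 on the log2 scale (limma, adjusted p = 0.0141). The log2 ratio of STT3A to STT3B averaged -0.55 ± 0.12 in shHYOU1 and -0.84 ± 0.32 in shControl libraries (SD, n = 3 each), a difference of 0.29 with overlap (exact permutation test, two-sided, p = 0.3, 0.4 adjusted over 4 ratios). That difference was 0.11 without shControl replicate 1.

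The remaining subunits are given in brief. DDOST and DAD1, which belong to every form of the enzyme, were lower in all shHYOU1 libraries than in any control, with log2 fold changes of -0.28 and -0.14 that did not pass (limma, adjusted p = 0.165 and 0.357). DDOST fell without shControl replicate 1 (-0.36, limma, adjusted p = 0.00227), and DAD1 did not pass without it (-0.14, limma, adjusted p = 0.107). OST4, OSTC and TMEM258 had overlapping groups and log2 fold changes of 0.22, -0.07 and 0.01, and the sign of each turned without shControl replicate 1. On the opposite strand OST4 shares 21% of its exon bases with AGBL5 (8.37 to 12.4 FPKM). TMEM258 shares 13.0% with MYRF (6.38 to 14.6 FPKM) and 5.41% with FEN1 (56.5 to 79.9 FPKM), also on the opposite strand. Strand use in counting is not given, so these levels are uncertain. KRTCAP2, which with OSTC belongs to the forms built on STT3A, was at 0.796 to 1.61 FPKM over the 6 libraries, and differed by 0.40 on the log2 scale (limma, adjusted p = 0.303), or by 0.24 without shControl replicate 1. The subunits named in these sentences were chosen after their values were seen.

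**Figure D3:**
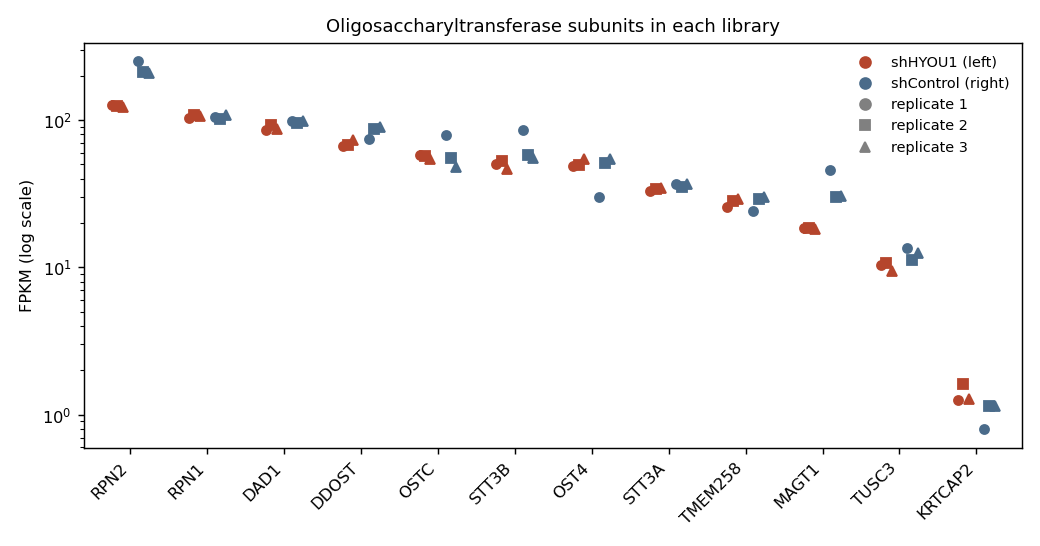
FPKM on a log scale (y axis) of the 12 oligosaccharyltransferase subunits (x axis, by mean level), with 3 shHYOU1 libraries left and 3 shControl libraries right of each tick and symbols for replicate numbers. RPN2 and MAGT1 show the widest gaps between the groups, while RPN1, at 101 to 109 FPKM, shows none. OSTC and OST4 differ mainly in shControl replicate 1. The groups of STT3B do not overlap, and its shControl replicate 1 lies above the other controls.

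In the lectin cycle UGGT1, the glucosyltransferase that puts a glucose back on misfolded glycoproteins and so returns them to the lectins, fell. It was the only one of the 8 genes of glucose trimming and the lectin cycle to pass the test. The lectins calnexin and calreticulin were both lower in every shHYOU1 library than in any control, and the glucosidase genes MOGS, GANAB and PRKCSH were all higher, without passing the test.

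UGGT1 (chr2:128091200-128195677, + strand) had 16.5, 17.0 and 15.2 FPKM in shHYOU1 libraries, against 32.8, 28.2 and 29.4 FPKM in shControl libraries. Both groups are tight, and shControl replicate 1 lies near the other controls. The mean ± SD was 16.3 ± 0.922 FPKM in shHYOU1 and 30.1 ± 2.36 FPKM in shControl (n = 3 each), or 54.0% of the control level. The log2 fold change was -0.88 (SE 0.12, limma, adjusted p = 0.00995), and -0.82 without shControl replicate 1. Like RPN2, it kept the call without any 1 shControl library and lost it without any 1 shHYOU1 library (limma, adjusted p up to 0.0781). UGGT2, its paralogue, had 3.80, 3.32 and 3.39 FPKM in shHYOU1 and 6.09, 3.62 and 2.89 FPKM in shControl libraries. The control values of UGGT2 enclose those of shHYOU1 (log2 fold change -0.19, limma, adjusted p = 0.666), and the sign turned to 0.11 without shControl replicate 1. The log2 ratio of UGGT1 to UGGT2 averaged 2.18 ± 0.12 in shHYOU1 and 2.88 ± 0.45 in shControl libraries (SD, n = 3 each), with no overlap (difference -0.70, exact permutation test, two-sided, p = 0.1, 0.2 adjusted over 4 ratios). That difference was -0.93 without shControl replicate 1.

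CALR, the soluble lectin, had 237, 244 and 250.4 FPKM in shHYOU1 libraries, against 294.5, 428 and 455 FPKM in shControl libraries. Here shControl replicate 1 is the control nearest to the shHYOU1 values. The mean ± SD was 244 ± 6.87 FPKM in shHYOU1 and 393 ± 86.0 FPKM in shControl (n = 3 each), with a log2 fold change of -0.66 and an SE of 0.18 that just missed the threshold (limma, adjusted p = 0.0575). CALR fell without shControl replicate 1, by 0.86 on the log2 scale (limma, adjusted p = 4.44e-05), and it also fell under quantile normalization, in voom and after the GC correction. CANX, the membrane-bound lectin, had 152.5, 152 and 140.2 FPKM in shHYOU1 and 264, 184 and 181.5 FPKM in shControl libraries. For CANX replicate 1 is the control farthest from shHYOU1, opposite to CALR. Its log2 fold change was -0.48 (SE 0.17, limma, adjusted p = 0.107), and it fell by 0.30 without shControl replicate 1 (limma, adjusted p = 0.00513). The log2 ratio of CANX to CALR averaged -0.72 ± 0.11 in shHYOU1 and -0.90 ± 0.65 in shControl libraries (SD, n = 3 each), a difference of 0.18 with overlap (exact permutation test, two-sided, p = 0.7, 0.7 adjusted over 4 ratios). It was 0.56 without shControl replicate 1 and 0.02 without shControl replicate 2, and turned to -0.03 without shControl replicate 3. CALR and CANX, whose promoter windows hold an ERSE, had the highest FPKM of the 8 genes.

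The enzymes that remove glucose had the opposite sign. GANAB, the catalytic subunit of glucosidase II, had 129, 133 and 132 FPKM in shHYOU1 libraries, against 68.1, 97.9 and 100.4 FPKM in shControl libraries. PRKCSH, its regulatory subunit, had 54.7, 55.0 and 61.6 FPKM in shHYOU1 and 24.4, 46.2 and 47.0 FPKM in shControl libraries. MOGS, glucosidase I, had 28.6, 27.6 and 29.6 FPKM in shHYOU1 and 9.86, 24.1 and 24.9 FPKM in shControl libraries. No pair of groups overlaps, and in all 3 genes shControl replicate 1 is far below the other controls. The log2 fold changes were 0.59, 0.60 and 0.66 for GANAB, PRKCSH and MOGS (limma, adjusted p = 0.0680, 0.176 and 0.253). Without shControl replicate 1 all 3 rose, by less, at 0.41, 0.29 and 0.22 (limma, adjusted p = 0.000699, 0.0107 and 0.0206). After the GC correction GANAB and PRKCSH rose and MOGS did not pass (limma, adjusted p = 0.114). MAN1B1, a mannosidase that trims glycoproteins bound for degradation, had 20.3 to 22.3 FPKM in shHYOU1 and 15.1 to 23.5 FPKM in shControl libraries, and its sign turned without shControl replicate 1 (log2 fold change 0.08 with and -0.13 without it). The genes of this paragraph were named after their values were seen.

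**Figure D4:**
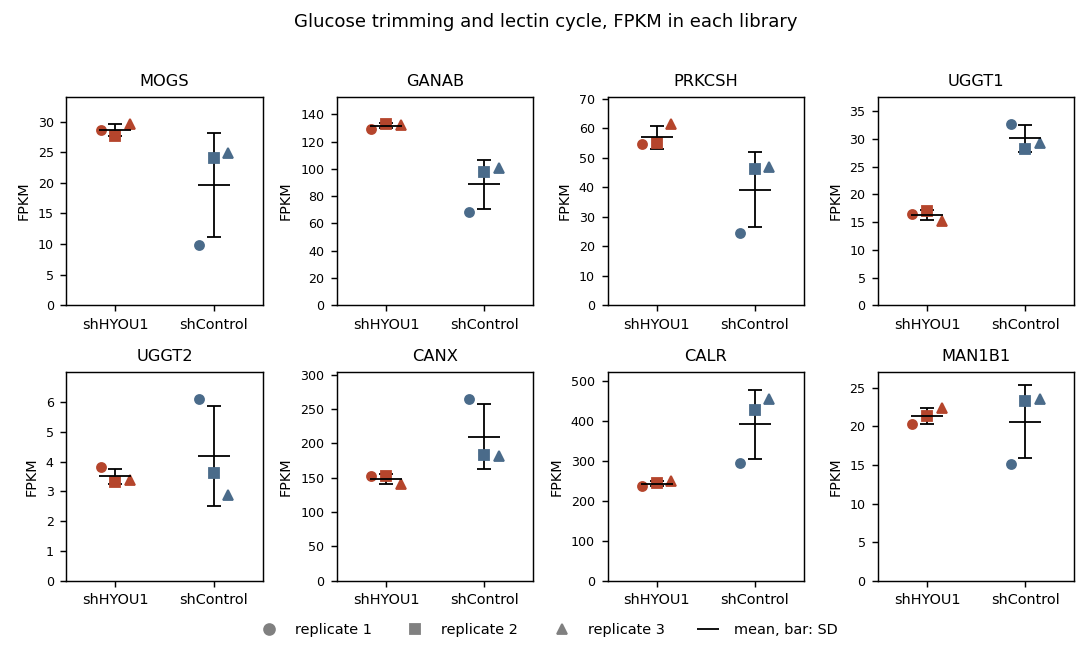
FPKM (y axis from 0) of the 8 genes of glucose trimming and the lectin cycle, with shHYOU1 libraries left and shControl libraries right in each panel, symbols for replicate numbers and bars for the mean with its SD (n = 3 each). UGGT1, CANX and CALR lie lower in shHYOU1 and MOGS, GANAB and PRKCSH higher without overlap, and shControl replicate 1 is either the highest or the lowest control in every panel.

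The library that stood apart touched these genes in both directions. Among the 41 genes, shControl replicate 1 ranged from 1.31 log2 units below the mean of shControl replicates 2 and 3, in MOGS, to 1.04 above it, in ALG10B. The 7 genes that fell had a median transcript GC content of 42.99% and lay a median of 0.40 above that mean in replicate 1. The 34 that did not pass had a median GC content of 50.7% and lay at -0.13, beside a median of 48.8% GC over all genes tested. DOLK, at 56.9% GC, was the only one of the 7 in which replicate 1 lay below the other controls, at -0.58. All 7 passed the test without that library.

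**Figure D5:**
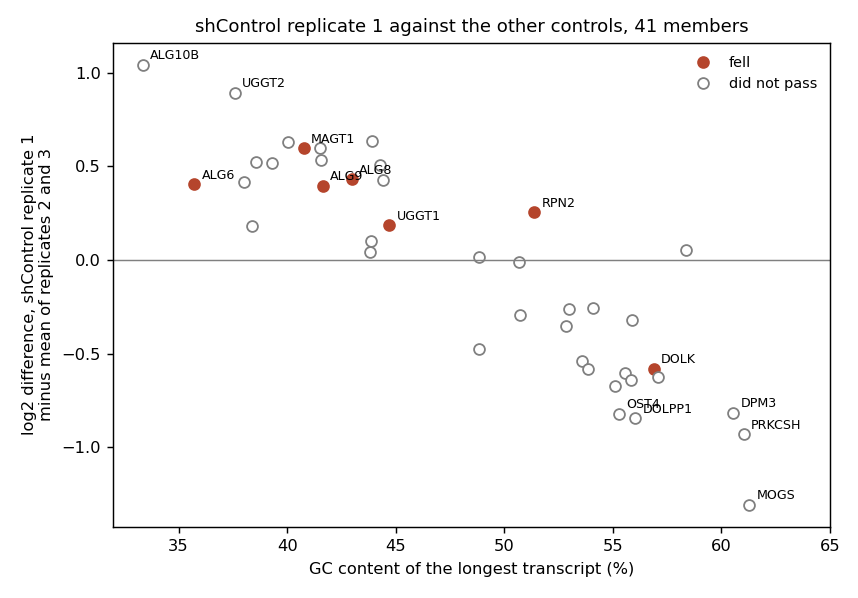
Log2 difference between shControl replicate 1 and the mean of shControl replicates 2 and 3 (y axis) against the GC content of the longest transcript in percent (x axis) for the 41 genes tested; filled points fell in shHYOU1. Genes of low GC content lie mostly above 0 and genes of high GC content mostly below, with ALG10B at 1.04 and MOGS at -1.31.

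Neighbouring steps of the pathway were covered by a further 46 genes, of which 41 were tested, 3 fell, 1 rose and 37 did not pass. These are 7.32% and 2.44% of the 41, against 5.66% and 6.6% of all genes, and their median log2 fold change was -0.05. Leaving out shControl replicate 1, 9 fell and 9 rose, where 19.7% and 24.6% of all genes did.

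Of 7 partners of the lectins 5 were tested, and PDIA3 and PPIB fell. PDIA3 is the disulfide isomerase that binds calnexin and calreticulin, and PPIB is a prolyl isomerase of the ER lumen. PDIA3 had 101, 103 and 101 FPKM in shHYOU1 libraries, against 148, 137 and 139 FPKM in shControl libraries, a log2 fold change of -0.47 (SE 0.09, limma, adjusted p = 0.0272). PPIB had 60.4, 62.7 and 61.9 FPKM in shHYOU1 libraries, against 92.5, 87.1 and 104 FPKM in shControl libraries, a log2 fold change of -0.61 (SE 0.11, limma, adjusted p = 0.0201). Neither gene has overlapping groups, and in neither does shControl replicate 1 stand apart. Without it the values were -0.44 for PDIA3 and -0.62 for PPIB. PDIA3 kept its call only without shControl replicate 1, and PPIB only without shControl replicate 1 or 3. Over the 6 omissions of a single library the adjusted p in limma reached 0.144 for PDIA3 and 0.116 for PPIB.

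Of 14 genes for mannose trimming, glycan lectins and export 13 were tested, and MAN1A2, a Golgi mannosidase, fell. It had 2.02, 1.83 and 1.60 FPKM in shHYOU1 libraries, against 6.94, 4.49 and 3.98 FPKM in shControl libraries. The log2 fold change was -1.42 (SE 0.23, limma, adjusted p = 0.0170), and -1.18 without shControl replicate 1, which is the highest control. Of 15 genes for branching of N-glycans in the Golgi 13 were tested, and SLC35A2, the transporter that carries UDP-galactose into the Golgi, rose. It had 31.6, 32.5 and 33.8 FPKM in shHYOU1 libraries, against 15.3, 18.1 and 19.3 FPKM in shControl libraries. The log2 fold change was 0.89 (SE 0.13, limma, adjusted p = 0.0117), or 0.80 without shControl replicate 1. Both calls were lost without any 1 of the shHYOU1 libraries, and MAN1A2 also without shControl replicate 2, with an adjusted p in limma of up to 0.0958 for MAN1A2 and 0.0808 for SLC35A2.

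None of the 10 genes that supply sugar nucleotides passed the test in limma, where 3 had an unadjusted p under 0.05, or in voom. UAP1, which makes UDP-N-acetylglucosamine, had 46.4, 46.8 and 42.1 FPKM in shHYOU1 and 43.6, 32.2 and 33.5 FPKM in shControl libraries (log2 fold change 0.32, limma, adjusted p = 0.198). GFPT1, the entry enzyme of the hexosamine pathway, had 28.4, 27.1 and 25.7 FPKM in shHYOU1 and 23.02, 15.7 and 14.4 FPKM in shControl libraries (log2 fold change 0.64, limma, adjusted p = 0.0768). In both genes shControl replicate 1 is the control nearest to shHYOU1, and without it both rose (limma, adjusted p = 0.00117 and 8.8e-05). In that setting 4 of the 10 genes rose and 2 fell, where 24.6% and 19.7% of all genes did. The 2 that fell were UGP2 and GMPPB (-0.25 and -0.38, limma, adjusted p = 0.0290 and 0.0304).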

How the data were processed

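The authors deposited 1 table of FPKM values per gene and library, with gene lengths, and per the labels' protocols the RNA was selected with oligo(dT) beads and primed with random hexamers. The aligner, counting tool and strand setting were not given in the sources used here. Gene identifiers and coordinates equalled GENCODE release 29 (GRCh38) for all 58735 genes. FPKM times gene length gave whole fragments in each library (100% of values within 0.01 fragments), and the deposited scaling equalled median-of-ratios size factors, so values were already balanced between libraries. A gene of 1 kb with 3 fragments would read 0.160 to 0.176 FPKM, a floor for counting error only. The gene length joins the exons of all transcripts, so levels compare between genes only per length.

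Groups were compared on log2(FPKM + 0.1), which understates changes of low genes, with limma 3.58.1 in R 4.3.3 (lmFit, eBayes with trend and robust prior) over 12448 genes, with Benjamini-Hochberg adjustment over all of them. The GC correction took from each library a lowess trend (span 0.3) on GC content, taken from each gene's longest transcript, and would also take out real differences that follow GC content. Within-library ratios were compared by exact permutation.

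The genes and lists were chosen with earlier results of these data known. Named with full values are all genes that passed, STT3A and STT3B, and those with the 2 highest means of each role. In the neighbouring lists up to 4 that passed are named, or the 2 highest means where none did. Any other gene was named after its values were seen. Protein sequences were not used here. Alternatives were pseudocounts of 1 and 0.01, a filter of 0.1 FPKM or none, TPM scaling, quantile normalization, a block for the replicate number, a fit without the variance trend, voom on the recovered fragments, the GC correction alone and with the block, and leaving out each library.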

Additional observations from a re-analysis of the deposited data

How the results depend on the processing

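The 7 genes that fell kept a negative fold change in all 17 alternatives, while whether they passed varied. The count that fell was 4 with no filter (1.12% of all genes), 16 after the GC correction and 14 after the GC correction with the replicate number as a block (17.9% of all genes). With single libraries left out it ran from 0 to 15. The count that rose was 1 in voom (GANAB; 7.91% of all genes), 4 after the GC correction with or without the block, and 0 to 6 with single libraries left out. Of the neighbouring genes, 8 fell after the GC correction with or without the block, 1 fell with the block alone and 0 to 9 fell with single libraries left out. Of these, 9 rose after the GC correction, 8 with the block added (18.3% of all genes) and 0 to 9 with single libraries left out. The median log2 fold change of the 41 was -0.18 under TPM scaling, -0.27 under quantile normalization and -0.25 to -0.18 with single libraries left out, where scaling moved the median of all genes by less than 0.1. Over all genes 1526 passed, against 940 with the block, 770 with no filter, 1806 in voom, 5048 after the GC correction and 49 to 5518 with single libraries left out. The cause was not tested.

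The sign turned in some settings for genes that did not pass, whose log2 fold changes lay between -0.19 and 0.30. Under TPM scaling DOLPP1 was at 0.0063. Under quantile normalization RPN1 was at -0.082, TMEM258 at -0.081 and MAN1B1 at -0.0065. After the GC correction, with the block or without it, DPM3 was at -0.022, STT3A at 0.012, RPN1 at -0.0033, OSTC at 0.092, TMEM258 at -0.019, UGGT2 at 0.0069 and MAN1B1 at -0.12. With single libraries left out DOLPP1 ran from -0.31 to 0.16, ALG5 from -0.071 to 0.24, ALG2 from -0.074 to 0.29, RPN1 from -0.0020 to 0.047, OST4 from -0.058 to 0.38, OSTC from -0.23 to 0.13, TMEM258 from -0.092 to 0.068, UGGT2 from -0.41 to 0.11 and MAN1B1 from -0.13 to 0.18. The difference in the CANX to CALR log2 ratio ran from -0.029 to 0.56.

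Replicate numbers are shared by the groups. Same-numbered libraries had correlations of deviations from the group means of 0.125, -0.093 and 0.17 for numbers 1, 2 and 3. Libraries of different numbers had correlations from -0.214 to 0.16. These values do not settle whether the numbers mark pairs, and the main test did not take them as pairs. With the block 6 genes fell (3.33% of all genes), ALG6 being lost at an adjusted p of 0.0757 in limma, and 0 rose.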
